A study of Mus musculus with 2 samples.

Results

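The aryl hydrocarbon receptor and its classical targets were represented by 7 genes: Ahr, Ahrr, Cyp1a1, Cyp1a2, Cyp1b1, Tiparp and Aldh3a1. Their members were every probe whose gene name in the scanner tables was one of these symbols, which gave 9 of 56605 probes. The study held 2 arrays of total RNA from mouse cells. A single sample had been given the agent S180 and the other the control agent DMSO, a common solvent. Neither the kind of cell nor the dose and duration of exposure is in the labels, which also leave S180 undefined and give no genotype or strain. Since each group has 1 array, the differences are unreplicated and were not tested. The genes were chosen by function but with the S180 against DMSO differences of Cyp1a1, Ahrr and Cyp1b1 already known. The values of the members are therefore a description.

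The aryl hydrocarbon receptor, encoded by Ahr, is a ligand-activated transcription factor of the bHLH-PAS family. Without ligand it waits in the cytosol in a complex with the chaperone HSP90 and p23. Once bound by a planar aromatic ligand such as dioxin or a tryptophan derivative, it enters the nucleus, pairs with ARNT and binds the dioxin response element, whose core is GCGTG. Cyp1a1, Cyp1a2 and Cyp1b1 encode the P450 enzymes by which the response is usually read. Ahrr encodes a repressor that competes with the receptor, and Tiparp a poly(ADP-ribose) polymerase family enzyme that also limits it. Aldh3a1 encodes an aldehyde dehydrogenase of the same gene battery.

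Cyp1a1, Ahrr and Cyp1b1 were lower in the S180 sample, by 2.20-fold, 1.76-fold and 1.72-fold, while Ahr and Tiparp were 1.26-fold and 1.24-fold higher on the main scale (log2 -0.02 and -0.04 on a spike-in scale). Aldh3a1 differed by 1.02-fold. Cyp1a2 and another probe of Ahrr were not well above background on either array. The 7 measured probes thus fell into a lower group of 3 and a group of 4 at or above the median probe, and the median of the 7 was 0.02 on the log2 scale, beside 0.00 over all measured probes. A probe counted as measured when the scanner software flagged it as well above background in S180 and in DMSO alike, as it did for 32680 of 56602 probes.

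The promoters of the members are shown because the dioxin response core can be read in them directly. RefSeq promoter sequences of build GRCm38.p6 were found for 5 of the 7 genes. They cover 250 bases before the annotated start and 50 after it, and only the 250 bases before the start are printed, 5′ to 3′ in the direction of the gene. Capitals mark the core GCGTG, or CACGC where it lies on the opposite strand. The printed windows lie at chr9:57697363-57697612 (Cyp1a1) and chr3:65528197-65528446 (Tiparp), before genes on the plus strand. Those before genes on the minus strand lie at chr13:74292332-74292581 (Ahrr) and chr17:79715062-79715311 (Cyp1b1).
Ahrr: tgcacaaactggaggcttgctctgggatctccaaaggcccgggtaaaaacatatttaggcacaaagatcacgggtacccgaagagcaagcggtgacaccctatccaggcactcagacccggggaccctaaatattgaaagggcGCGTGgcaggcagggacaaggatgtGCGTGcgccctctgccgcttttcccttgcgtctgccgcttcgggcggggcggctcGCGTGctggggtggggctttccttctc
Cyp1a1: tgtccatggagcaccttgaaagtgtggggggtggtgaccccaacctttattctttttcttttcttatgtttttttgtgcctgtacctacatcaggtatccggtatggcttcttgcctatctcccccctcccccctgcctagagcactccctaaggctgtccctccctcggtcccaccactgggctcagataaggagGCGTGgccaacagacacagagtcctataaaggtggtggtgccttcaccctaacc
Cyp1b1: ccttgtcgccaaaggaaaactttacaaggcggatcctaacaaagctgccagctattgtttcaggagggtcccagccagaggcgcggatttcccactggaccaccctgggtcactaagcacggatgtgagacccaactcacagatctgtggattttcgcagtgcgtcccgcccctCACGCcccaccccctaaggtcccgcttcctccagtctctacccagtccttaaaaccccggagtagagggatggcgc
Tiparp: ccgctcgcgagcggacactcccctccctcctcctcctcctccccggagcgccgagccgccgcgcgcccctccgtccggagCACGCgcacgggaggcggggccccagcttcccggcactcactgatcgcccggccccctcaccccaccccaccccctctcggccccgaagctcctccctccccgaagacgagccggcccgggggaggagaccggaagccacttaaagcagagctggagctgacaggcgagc

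The Ahrr promoter held 3 cores, with their first bases at -107, -82 and -27 from the start, and each of Cyp1a1 (-54), Cyp1b1 (-76) and Tiparp (-170) held 1, where -1 is the last base before the start. The core at -27 in Ahrr was part of the longer form TNGCGTG, with its first base at -29, and it was the only match to that form among the 5 promoters. Over 32851 promoters of the same length, searched on both strands, 32.4% held GCGTG and 5.07% held TNGCGTG. These shares do not allow for base composition, and the core itself contains the pair CG. Tiparp, Ahrr and Cyp1b1 held 34, 17 and 16 such pairs, against a median of 7 over all promoters. Cyp1a1 held 4 and Cyp1a2 held 3. None of the 5 held ACGTG, the other form of the core that HIF dimers bind, which 19.6% of all promoters held. The 300 bases of Cyp1a2 held no GCGTG. Cyp1a1 and Cyp1a2 stand head to head on chromosome 9, with 13958 bases between their starts. A core was thus present both in genes that were lower in S180 (Cyp1a1, Ahrr and Cyp1b1) and in Tiparp, which was not lower on the main scale. These matches describe the letters of short windows only, and the well-known enhancer of Cyp1a1 lies further upstream.

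The unit of all values is the processed signal, the brightness of a spot after background subtraction and detrending within the array. For the comparison it was put on a log2 scale and the 75th percentile of each array was subtracted, 9.27 for S180 and 9.55 for DMSO. Each member probe had 1 spot on each array. A pair of errors was therefore attached to each difference. The first is the scanner software's own modelled standard error. The second is the SD between spots of the spike-in probe nearest in signal, with up to 35 spots on each array. Neither includes the variation between cultures or between RNA and dye preparations. On the DMSO array no spike-in probe lay between log2 signals of 6.68 and 9.78, where Ahrr, Aldh3a1 and Cyp1b1 fell. The brighter of these spike-ins (SD 0.028) was used for Ahrr and Aldh3a1. The dimmer one, used for Cyp1b1, had an SD of 0.121. On the S180 array Cyp1a1 fell between spike-ins at 6.76 (SD 0.067) and 9.93 (SD 0.041), and the brighter was used. Cyp1b1 in S180 and the dimmer Ahr probe on both arrays lay below the spike-in used. The next dimmer spike-in had an SD of 0.517 in S180 and 0.317 in DMSO. The spot SDs of all these probes may therefore be too small.

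The receptor gene itself was read by 2 probes. The main Ahr probe, on chromosome 12 from 36182724 to 36182783 (build mm9, as for all probe positions), had a processed signal of 3991 in S180 and 3839 in DMSO. After scaling, S180 was higher by 0.34 on the log2 scale (modelled SE 0.20, spot SD 0.047). The other Ahr probe, assigned to an Ensembl transcript and located from 36199083 to 36199142, was dim, at 41.3 in S180 and 37.0 in DMSO, with a difference of 0.44 (modelled SE 0.26, spot SD 0.138). Both Ahr probes lay above the median probe. With scaling on spike-in transcripts the main probe lay at -0.02, and without scaling at 0.06, while the dim probe lay at 0.08 and 0.16. In relation to the median measured probe the main probe was higher by 0.26 to 0.36 under all 8 alternatives and the dim probe by 0.25 to 0.44.

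Ahrr, the repressor and at the same time a target of the receptor, was read by a probe on chromosome 13 from 74348566 to 74348612. Its processed signal was 141 in S180 and 301 in DMSO, so that the scaled difference was -0.82 (modelled SE 0.21, spot SD 0.073). Of 32680 measured probes, 0.459% had a difference as low or lower. The other Ahrr probe, from 74350685 to 74350744, did not bear on this. Its raw mean signal was 44.2 in S180 and 37.4 in DMSO, and of 308 negative control spots 6 and 220 were as bright or brighter. The lower value of Ahrr thus rests on 1 probe.

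**Figure D1:**
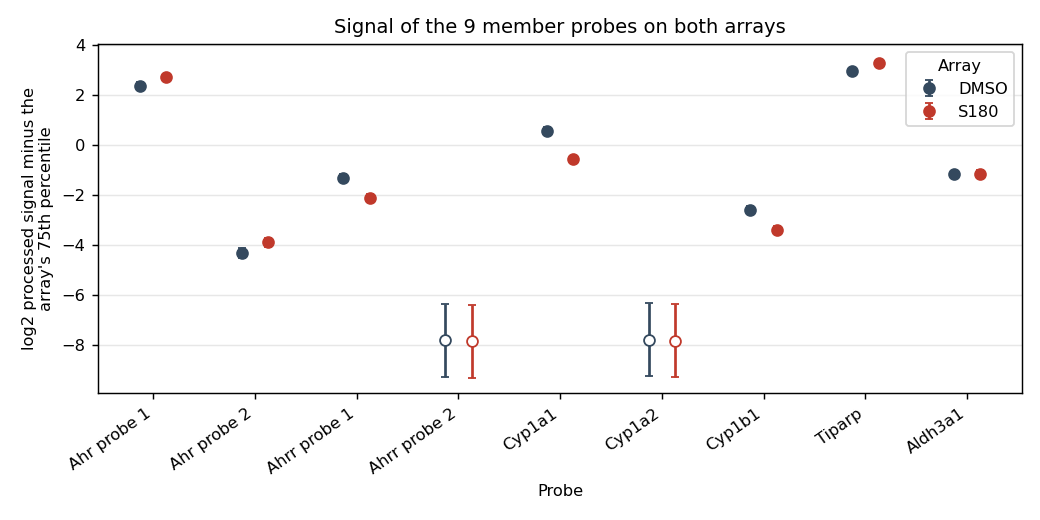
Scaled log2 processed signal (y axis) of each of the 9 member probes (x axis) in S180 (red) and DMSO (dark blue). Bars are the scanner software's modelled standard error of 1 spot, often smaller than the point, and open points are not well above background. Only the pair of points of a probe can be compared, since probes differ in brightness for reasons other than transcript level. Cyp1a1, the first Ahrr probe and Cyp1b1 sit lower in S180.

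Cyp1a1, whose enzyme oxidises polycyclic aromatic compounds and whose transcript is the standard readout of the receptor, had the largest difference among the 7 measured probes. Its probe on chromosome 9 from 57551535 to 57551594 gave a processed signal of 410 in S180 and 1094 in DMSO. The scaled difference was -1.13 (modelled SE 0.20, spot SD 0.050), or 2.20-fold lower, and the unscaled signals differed by 2.67-fold. It was the only member probe at least 2-fold lower, against 0.15% of all measured probes, and no member was 2-fold higher, against 0.63%. Among all measured probes it ranked 30 from the lowest. When the measured probes were split by brightness into 3 classes of equal size, 12 of 10892 probes in its class, the middle one, were at least 2-fold lower in S180. The call held in every one of 8 other scalings and corrections, with differences between -1.49 and -1.02. Several of these could hardly change it. Keeping flagged spots left the value as it was, and the deposited values match the quantile-normalized ones. Scaling on the median probe barely moved it, and omitting scaling or using spike-ins shifts every probe down. Normexp gave -1.02, close to the 2-fold limit.

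Cyp1b1, which encodes the P450 enzyme of this family typical of tissues outside the liver, had a dimmer probe on chromosome 17 from 80106547 to 80106606. The processed signal was 58.6 in S180 and 123 in DMSO, and the scaled difference -0.78 (modelled SE 0.22, spot SD 0.138). At 1.5-fold, 3 of the 7 measured member probes were lower in S180 (Cyp1a1, Ahrr and Cyp1b1) and none higher, where 1.67% and 3.21% of all measured probes were. Cyp1b1 stands in the dim class of probes, whose differences had an SD of 0.357, against 0.273 in the middle class and 0.215 in the bright class. Its difference shrank to -0.38 when normexp background correction replaced the scanner software's own. That of Ahrr became -0.57 under the same correction. The offset of 50 that normexp adds to each signal shrinks the differences of dim probes by construction. The signs of Cyp1b1 and Ahrr stayed negative under all 8 alternatives.

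Cyp1a2, the liver enzyme of the family that metabolises caffeine and arylamines, gave no usable level. Its probe on chromosome 9 from 57528060 to 57528119 had a raw mean signal of 41.5 in S180 and 44.0 in DMSO. The 308 negative control spots averaged 38.1 ± 2.63 (SD) and 39.5 ± 3.82, and 26 and 21 of them were as bright as that probe or brighter. A difference in Cyp1a2 could not be measured on these arrays, and no fold is given.

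**Figure D2:**
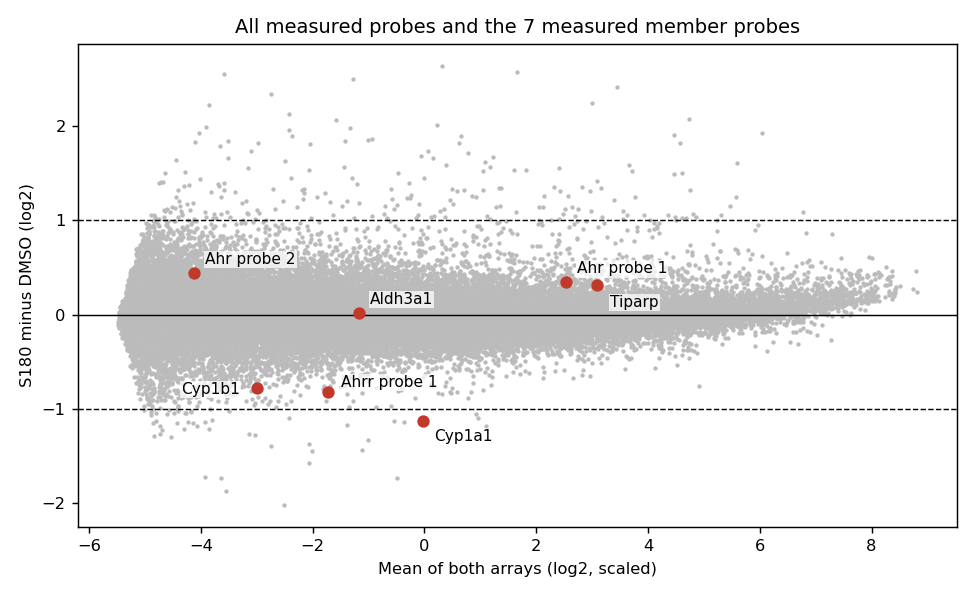
Difference between S180 and DMSO (y axis, log2) against the mean of both arrays (x axis, scaled log2) for all 32680 measured probes (grey), with the 7 measured member probes in red. The dashed lines mark 2-fold. Cyp1a1 lies below the lower line at -1.13, Ahrr and Cyp1b1 lie just above it at -0.82 and -0.78, and the others lie at or above 0 on this scale, which the spike-in scale shifts by -0.36.

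Tiparp, whose enzyme ADP-ribosylates the receptor and dampens its activity, was not lower along with Cyp1a1 in relation to the median probe. Its probe on chromosome 3 from 65358749 to 65358808 gave a signal of 5846 in S180 and 5721 in DMSO, and a scaled difference of 0.31 (modelled SE 0.20, spot SD 0.047). It lay at 0.03 without scaling and at -0.04 on the spike-in scale, and 0.23 to 0.34 above the median measured probe under the 8 alternatives. Aldh3a1, which detoxifies aldehydes from lipid peroxidation, had a signal of 276 in S180 and 330 in DMSO on a probe on chromosome 11 from 61031857 to 61031916. Its scaled difference of 0.02 was smaller than both errors (modelled SE 0.21, spot SD 0.073). On the spike-in scale it lay at -0.33, near the median measured probe at -0.35.

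Cyp1a1, Ahrr and Cyp1b1 therefore differed from Ahr, Tiparp and Aldh3a1 by more than both errors. A factor common to an array cancels between members, and Cyp1a1 lay 1.47 (log2) below Ahr, with a spot SD of 0.069 and a modelled SE of 0.28 for that gap. Over the 8 alternatives the gap ranged from -1.47 to -1.33. Cyp1a1 lay 1.45 below Tiparp and 1.16 below Aldh3a1. Aldh3a1 in turn lay 0.31 below Ahr and 0.29 below Tiparp, with a modelled SE of 0.29 for each gap. The gap of Ahrr to Ahr was -1.16 (-1.17 to -0.87 over the alternatives) and that of Cyp1b1 to Ahr was -1.12 (-1.18 to -0.69). Alternatives that subtract a constant from each array leave such gaps, and distances from the median probe, unchanged by construction. Keeping flagged spots left them unchanged too. The ranges therefore come from quantile normalization, the deposited values that match it, cyclic loess and normexp. The receptor transcript and the targets Tiparp and Aldh3a1 thus were not lower, in relation to the median probe, along with Cyp1a1, Ahrr and Cyp1b1, except Aldh3a1 under 1 alternative.

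**Figure D3:**
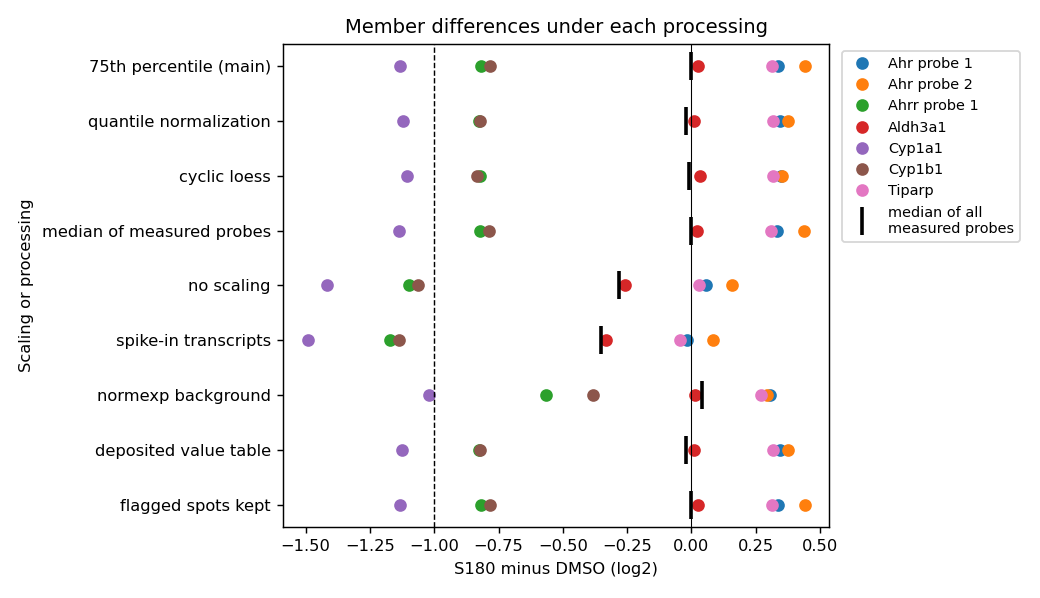
Difference between S180 and DMSO (x axis, log2) of the 7 measured member probes (coloured points) under the main scaling and 8 alternatives (y axis). Black bars are the median of all measured probes and the dashed line marks 2-fold lower. Without scaling and on the spike-in scale the median shifts to -0.28 and -0.35, and Cyp1a1, Ahrr and Cyp1b1 all pass 2-fold.

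On both arrays 61.9% and 60.6% of non-control spots were well above background, in S180 and DMSO, and no spot was saturated. The labels give no tissue. Of 7 melanocyte markers all were measured, among them the melanosome and pigment enzyme genes Pmel, Dct and Tyrp1. The 7 had log2 differences of -0.12 to 0.26. Their summed signal was 800049 in S180 and 868102 in DMSO (0.16 after scaling), the highest sum of any cell type's markers. The sum of the neural markers came next, at 10246 and 10865. None of 4 hepatocyte markers (Alb, Ttr, Apoa1 and Cyp2e1) was well above background on either array. Markers of other cell types lay on both sides of the median gene. All 3 neural markers (Snap25, Tubb3 and Gfap) lay above it, with a median of 0.20, and of 4 measured blood markers out of 5, 2 lay above and 2 below. The 1 endothelial marker measured of 3, Pecam1, lay at -0.25. Fibroblast and epithelial markers were lower in S180, as Cyp1b1 and Cyp1a1 were. Of 6 fibroblast markers 4 were measured and all 4 lay below the median gene. Col1a2 lay at -0.83 on its brightest probe and -0.33 on the other, and Col1a1 at -0.02. The summed signal of those 4 was 1385 in S180 and 2387 in DMSO, a log2 difference of -0.50 after scaling, and Col1a2 alone gave 640 and 1378 of it. Col3a1 and Thy1 were not well above background. Of 4 epithelial markers Epcam and Cdh1 were measured, with a summed signal of 40.9 and 77.3 (-0.64 after scaling), and Krt8 and Krt18 were not. Under normexp, whose offset shrinks dim probes by construction, Epcam lay at -0.05 and Cdh1 at -0.04. The part of these cell types in the differences of Cyp1a1, Ahrr and Cyp1b1 was not tested. In bulk RNA fewer cells of a type and less RNA per cell cannot be told apart.

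For the genes around the receptor, each gene was taken at its brightest measured probe, and 20921 genes were measured. All 13 listed genes of the receptor's complex and its partners were measured, 8 above and 5 below the median gene, with a median difference of 0.06. Arnt, the obligate partner of the receptor, lay at 0.14 (0.04 to 0.30 over 3 probes) and the HSP90 gene Hsp90ab1 at 0.15, and on the spike-in scale they turned to -0.21 and -0.20. That scale shifts each value by -0.36, so that a listed gene at a smaller positive value falls below 0 on it. Arnt2, the partner used mainly in neurons, was the single one 1.5-fold apart, 1.61-fold lower with signals of 32.1 in S180 and 62.7 in DMSO. Its difference of -0.68 shrank to -0.19 under normexp, whose offset shrinks dim probes by construction. Of all measured genes 1.73% were at least 1.5-fold lower and 3.1% at least 1.5-fold higher, and 0.167% and 0.588% passed 2-fold, which no gene of this list did. On the brightest probes the highest value was that of Rela, the NF-kappaB subunit, at 0.34, and Ncoa1, a coactivator of the complex, lay at -0.25. On the other of their 2 probes Rela lay at 0.00 and Ncoa1 at 0.06. Other probes of Src and Ncoa3 reached 0.56 and -0.52.

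Of 22 further genes reported as targets of the receptor, 11 were measured, 7 of them above and 4 below the median gene, with a median of 0.10. None was 1.5-fold lower and 1 was 1.5-fold higher, where 1.73% and 3.1% of all measured genes were. Nqo1, the quinone reductase shared by the receptor and NRF2, lay at 0.17, with a signal of 4294 in S180 and 4632 in DMSO. On the brightest probes the glutathione transferase gene Gsta2 was lowest at -0.27, and Aldh1a3, which makes retinoic acid, lay at -0.25. The other probe of Aldh1a3 lay at -0.50. Slc7a5, a large neutral amino acid transporter, was 1.59-fold higher (0.67), with 180 in S180 and 138 in DMSO, and stayed above 0 under all 8 alternatives (0.31 to 0.67). Ido1, Areg, Ereg, Cyp2s1 and Serpinb2 were among the 10 genes not well above background on either array.

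Kynurenine and other tryptophan products are endogenous ligands of the receptor, and 10 of 14 genes of that route were measured, 5 above and 5 below the median gene. Slc7a5, which also carries tryptophan and kynurenine, was the one gene 1.5-fold apart. Kyat3, a kynurenine aminotransferase, lay at -0.45 (2125 in S180 and 3533 in DMSO) and Il4i1, an amino acid oxidase that yields ligands of the receptor, at -0.22. Ido2 lay at 0.37 on a dim probe (59.8 in S180 and 56.0 in DMSO). Ido1, Kmo and Kynu were not well above background, and Tdo2 passed on 1 array.

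P450 enzymes need an electron donor and haem, and all 14 genes of these functions were measured, 8 above and 6 below the median gene, with a median of 0.03. Por, the reductase that feeds electrons to the Cyp1 enzymes, lay at 0.10 and Alas1, the first enzyme of haem synthesis, at 0.17. Hmox1, which degrades haem, was the one gene 1.5-fold apart, 1.86-fold higher with 50853 in S180 and 33296 in DMSO, and stayed higher under all 8 alternatives (0.54 to 0.89). Cpox, another enzyme of haem synthesis, lay at 0.32 and Ppox at -0.21.

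The PARP family, to which Tiparp belongs, had 15 of 15 genes measured, 6 above and 9 below the median gene, and none was 1.5-fold apart. Parp2, a sensor of DNA breaks, was lowest at -0.37 and Tnks2, a tankyrase, highest at 0.20, each on its brightest probe, beside 0.31 for Tiparp. Other probes of Parp8, Parp9, Tnks2 and Parp6 reached 0.64, 0.45, 0.44 and 0.36, and that of Parp3 reached -0.48. Of 14 bHLH-PAS relatives of the receptor 9 were measured, 5 above and 4 below the median gene. Hif1a and Epas1, which share the partner ARNT with the receptor, lay at -0.03 and 0.00, the clock gene Arntl at 0.33 and Arntl2 at -0.50. Arntl ranged from 0.33 to 0.51 over 3 probes, and the other probe of Arntl2 lay at 0.08. Arnt2, described above, was the lowest of the 9 at -0.68 and the one gene 1.5-fold apart.

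**Figure D4:**
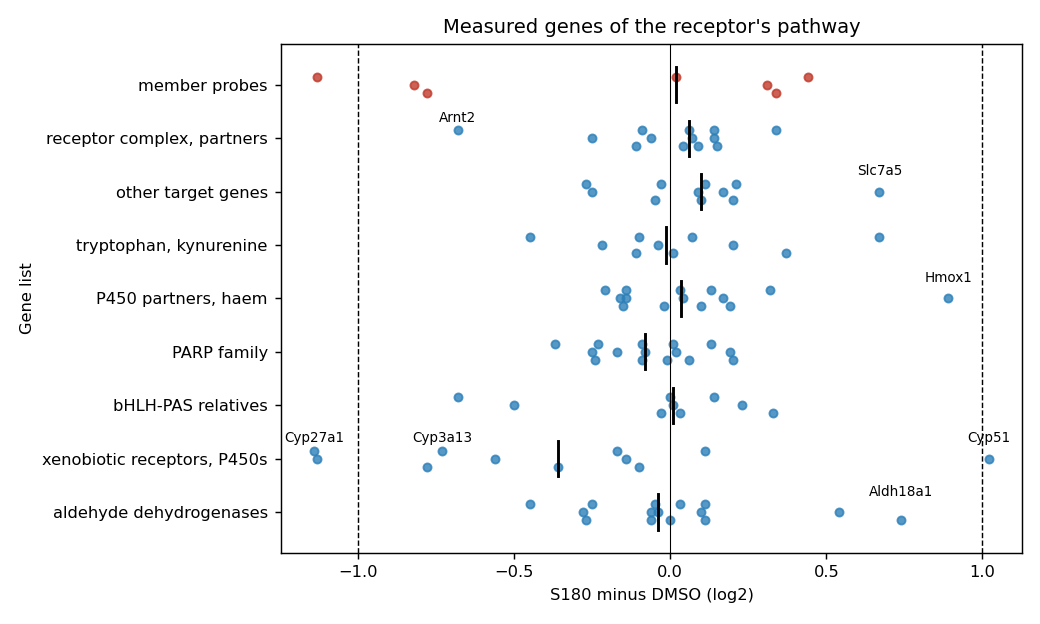
Difference between S180 and DMSO (x axis, log2) of the 7 measured member probes (red) and of the measured genes of 8 lists around the receptor (blue), 1 list per row, with vertical offsets for legibility only. Black bars are medians and dashed lines mark 2-fold. Cyp1a1, Ahrr and Cyp1b1 lie at -1.13, -0.82 and -0.78, while the medians of the lists lie between -0.36 and 0.10.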

How the data were processed

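The deposited scanner tables give linear spot intensities from Agilent Feature Extraction 10.7.1.1. Per the file headers, the processed intensity was background-subtracted and detrended within the array, with surrogate values for dim spots and no normalization between arrays. A further deposited value table holds log2 values, and how they were made was not given in the sources used here. They were within 0.1 of log2 processed signals after quantile normalization for 100.0% of probes in both columns, with a median of 5.27 each, so that scale and direction were settled from the data.

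Control spots and flagged outlier spots (120 and 195 non-control spots on the S180 and DMSO arrays) were left out, log2 signals of a probe's spots averaged and the 75th percentile over 56602 probes subtracted. Differences are S180 minus DMSO. The members are all probes with a member's name. Listed genes were named by accession through a RefSeq table of GRCm38.p6 (32987 probes matched) and, for older symbols, its synonyms. Genes on the lists were named in the text where they were at least 1.5-fold apart or among the 3 largest or smallest differences of their list. A few others are named for their role or because they could not be measured, and were chosen after their values were seen. With 2 arrays a pattern is 1 difference, so no gene was named for a like pattern. The members and lists were chosen with earlier results of these data known. Protein identity between members was not analysed here, and a further gene of the complex is not reported here. Background correction by normexp (offset 50), quantile normalization and cyclic loess used limma 3.58.1 in R 4.3.3. The calculation was run on simulated data with differences planted only in brighter probes. That run checked the code and does not bear on the dim member probes.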

Additional observations from a re-analysis of the deposited data

How the results depend on the processing

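At 2-fold, 1 member probe was lower in S180 in the main setting, and 3 were lower without scaling, 3 on the spike-in scale and 3 at a 1.5-fold threshold. No member probe was 2-fold higher under any alternative. The median member difference, 0.02 in the main setting, was -0.26 without scaling and -0.33 on the spike-in scale, as the subtracted factor alone moves it. Under the other alternatives it lay within the spot error of the main value. Of 128 counts of listed genes above or below the median gene, 126 stayed within 1.5 times the main count. Cyclic loess left 3 kynurenine genes above the median gene instead of 5, and normexp left 3 bHLH-PAS genes above it instead of 5. The cause was not tested. No paired analysis was possible because each group has 1 array. Signal over background limits the dim probes, and the differences of Cyp1b1 and Arnt2 shrank under normexp to -0.38 and -0.19. The offset of 50 in normexp shrinks dim differences by construction, so this shrinkage is no separate check of them.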

Other observations

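Among 18 other xenobiotic receptors and P450 genes, Cyp1a1 and Cyp1b1 included, 11 were measured, 2 above and 9 below the median gene. Cyp27a1, a mitochondrial sterol hydroxylase, lay at -1.14, as low as Cyp1a1, but with signals of 14.4 in S180 and 38.5 in DMSO. Under normexp Cyp27a1 lay at -0.16 and Cyp1a1 at -1.02. The offset of 50 by itself shrinks a dim probe such as that of Cyp27a1 more than a brighter one. These values therefore do not show which of these differences is firmer. Cyp3a13 lay at -0.73 (66.2 in S180 and 133 in DMSO, and -0.38 under normexp). Cyp51, the sterol demethylase of cholesterol synthesis, was 2.03-fold higher, with 22350 in S180 and 13408 in DMSO. At 2-fold, 2 of the 11 were lower and 1 higher, where 0.167% and 0.588% of all measured genes were, and the list holds Cyp1a1 and Cyp1b1, whose differences were known when the members were chosen. Cyp2b10, Cyp3a11 and Nr1i2, which encodes the pregnane X receptor, were not well above background.

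Of 19 aldehyde dehydrogenase genes related to Aldh3a1, 15 were measured, 6 above and 9 below the median gene, with a median of -0.04. Aldh18a1, which makes the precursor of proline, was 1.67-fold higher (4180 in S180 and 3036 in DMSO). Aldh1l2, of mitochondrial folate metabolism, lay at 0.54 on its brightest probe (0.48 to 1.02 over 3 probes). Aldh3a2, the closest relative of Aldh3a1 on the list, lay at -0.04 on its brightest probe, the lowest of its 3 probes, and at 1.1 on the highest.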
